A study of Mus musculus with 12 samples.

Results

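The NF-kB transcription factors and the IkB proteins that bind them were followed as 10 genes of the count table: the subunit genes Nfkb1, Nfkb2, Rel, Rela and Relb, the typical inhibitors Nfkbia, Nfkbib and Nfkbie, and the nuclear IkB genes Nfkbiz and Bcl3. They were taken by symbol from 50643 listed genes, and all 10 were among the 16694 genes with enough counts to be tested. RNA came from natural killer (NK) cells that were isolated by negative selection from spleens of C57BL/6 mice, a procedure that removes other cells instead of capturing the NK cells. The 12 libraries formed 4 groups of 3. These were Mirc11-/- (knockout) cells challenged with Listeria, Mirc11-/- cells without challenge, wild-type cells challenged with Listeria, and wild-type cells without challenge. Mirc11 holds the genes of 3 microRNAs, namely miR-24-2, miR-27a and miR-23a, and Listeria is a bacterium that grows inside host cells. The sources used here do not say whether the deletion was limited to a cell type, nor how Listeria was given, at which dose and for how long. The labels speak of biological replicates and do not say that each came from its own animal, so p-values measure the spread between these libraries, which may be partly technical.

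NF-kB factors are dimers that IkB proteins hold inactive in the cytoplasm of resting cells. Signals from cytokine and pathogen receptors run through ubiquitin ligases such as TRAF6 to the IKK kinases, which mark the IkB protein for destruction and so free the dimer to enter the nucleus. The freed factors switch on inflammatory genes and also genes of their own inhibitors, a feedback loop for which Nfkbia is the textbook case, while a slower branch through the kinase NIK processes the Nfkb2 precursor and works with RelB. In NK cells these factors act downstream of activating receptors and of the receptors for IL-18 and are known for their part in cytokine production. The title of the series places Mirc11 upstream of this route, at ubiquitin modifiers and at activation of NF-kB through TRAF6, and the comparisons below ask how the transcripts of the factors and inhibitors themselves differed. Transcript levels report neither the breakdown of IkB proteins nor the location of the subunits.

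Libraries held 17624530 to 23665679 assigned counts. The 12 NK markers summed to 6862.0 to 7354.9 CPM (counts scaled by the library total) in challenged knockout, 9400.7 to 9517.8 in unchallenged knockout, 5241.7 to 5403.1 in challenged wild-type and 8893.0 to 9989.3 in unchallenged wild-type libraries, and none was at 0 throughout. The 3 microRNA genes of the deleted cluster had 0 counts in all 12 libraries of poly(A) RNA, so they check nothing. Of their neighbours, Gm37352, chosen after its values were seen, had 29.7 to 47.2 CPM in challenged and 58.2 to 61.4 in unchallenged knockout libraries, against 3.33 to 6.75 in challenged and 3.06 to 6.76 in unchallenged wild-type libraries. Gm26532, chosen in the same way, had 2.7 CPM in challenged knockout replicate 3, inside the range of challenged wild-type libraries (2.34 to 4.27), and at most 0.984 in the other knockout libraries. Sex-linked transcripts went with the groups: the Y-linked Ddx3y averaged 56.5 CPM in challenged knockout, 108 in unchallenged knockout, 0.0589 in challenged wild-type and 11.6 in unchallenged wild-type cells, where replicate 4 alone held 34.6. The X-linked Xist averaged 749 CPM in challenged knockout, 0.728 in unchallenged knockout, 1327 in challenged wild-type and 1653 in unchallenged wild-type cells. Sex therefore cannot be told apart from challenge in knockout cells, or from genotype. In wild-type cells the challenge comparison called the same number of the 10 genes, 9, without unchallenged replicate 4. This count does not test the part of sex, in that comparison or in the others. Exons of 3 of the 10 genes overlap exons on the opposite strand: those of Psd (299 bases) and of a gene not among the listed ones (531) for Nfkb2, of Sirt2 (42) and Ccer2 (314) for Nfkbib, and of Gm16175 (161) for Bcl3. Since the strand setting of the counting is not given, reads from these stretches cannot be told apart.

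The sequences of the deleted microRNAs were used to look for possible sites in these transcripts. RefSeq (build GRCm38.p6) places the cluster on chromosome 8, and the seed, bases 2 to 8 from the 5′ end, is in capitals. The seeds of miR-23a and miR-27a differ from each other and from that of miR-24, so the cluster reads as 3 seed families.
mmu-miR-23a-3p: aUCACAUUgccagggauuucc
mmu-miR-27a-3p: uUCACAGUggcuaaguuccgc
mmu-miR-24-3p: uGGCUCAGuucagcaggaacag

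Matches to these seeds in the 3′ UTR were found in 4 of the 10 genes. The motifs searched on the transcript strand were AATGTGA for miR-23a, ACTGTGA for miR-27a and CTGAGCC for miR-24, each also counted as an 8mer where an A followed. Nfkb2 had 2 matches to miR-24, Rel had 1 to miR-27a, Nfkbib had 1 each to miR-27a and miR-24, and Bcl3 had 1 to miR-27a. Nfkb1, Rela, Relb, Nfkbia, Nfkbie and Nfkbiz had none in the UTR of the annotated transcript used. Shorter matches and other parts of the transcripts were not searched. Among 13568 tested genes with an annotated 3′ UTR, 40.3% held at least 1 such match, and among genes with a UTR of like length the share was 23.5% for Nfkb2, 83.3% for Rel, 26.7% for Nfkbib and 16.9% for Bcl3. For the genes without a match this share was 26.4% for Nfkb1, 25.2% for Rela, 14.1% for Relb, 19.8% for Nfkbia, 37.4% for Nfkbie and 43.6% for Nfkbiz. Whether the 10 genes hold more matches than these shares was not tested. The sites are shown with the bases that pair with the seed in capitals (GRCm38, GENCODE vM21 transcripts, 5′ to 3′ on the transcript strand).
Nfkb2, mmu-miR-24-3p 7mer-m8 match, chr19:46311830-46311856 (plus strand): tgtgtccaccccCTGAGCCtccaggag
Nfkb2, mmu-miR-24-3p 8mer match, chr19:46312271-46312297 (plus strand): cctggcttctgtCTGAGCCaggcccca
Rel, mmu-miR-27a-3p 7mer-m8 match, chr11:23736876-23736902 (minus strand): atatctttgtatACTGTGAtttttgtt
Nfkbib, mmu-miR-27a-3p 8mer match, chr7:28758601-28758627 (minus strand): acctcgatggccACTGTGAatagcagc
Nfkbib, mmu-miR-24-3p 7mer-m8 match, chr7:28758768-28758794 (minus strand): aggtcaacagtcCTGAGCCtcagggag
Bcl3, mmu-miR-27a-3p 7mer-m8 match, chr7:19808786-19808812 (minus strand): actcttctggaaACTGTGAggaccttg

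A seed match is a description and not a site in use. Of the 4 genes with a match, Rel alone passed the test between genotypes in unchallenged cells. The log2 differences there, knockout minus wild-type, were -0.10 for Nfkb2 (adjusted p = 0.646), -0.29 for Rel (adjusted p = 0.048), 0.070 for Nfkbib (adjusted p = 0.764) and 0.11 for Bcl3 (adjusted p = 0.695). In challenged cells all 4 were lower in knockout than in wild-type, with differences of -1.42 for Nfkb2, -0.93 for Rel, -0.94 for Nfkbib and -1.30 for Bcl3, as were the 6 genes without a match.

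Promoter windows are shown because NF-kB factors are known to bind kB motifs in the promoters of their own and their inhibitors' genes, and whether a match goes with a response was not tested. RefSeq promoter windows (250 bases before to 50 after the start) were matched for 7 of the 10 genes; Nfkb1, Relb and Nfkbiz had no entry. The kB consensus, the 10-base motif bound by NF-kB dimers, was searched on both strands, and overlapping matches were merged. It occurred in the windows of Nfkb2, Rel, Nfkbia, Nfkbie and Bcl3, and not in those of Rela and Nfkbib, which makes 5 of 7 genes, against 12.2% of 11133 tested genes with an entry and 8.46% of all 32851 windows. Nfkb2 has 3 annotated starts, each with a match, although the match after the middle start is the same stretch as the one before the last start. The windows below are those of 3 genes with large responses and of Rela, the gene with the smallest response in wild-type cells, with kB matches in capitals. These windows were chosen with the responses known, and that of Nfkbib, the other gene with a window and no match, is not among them. They lie at chr19:46304487-46304786 (plus strand, first of 3 starts), chr12:55492598-55492897 (minus strand), chr7:19822706-19823005 (minus strand) and chr19:5637291-5637590 (plus strand).
Nfkb2: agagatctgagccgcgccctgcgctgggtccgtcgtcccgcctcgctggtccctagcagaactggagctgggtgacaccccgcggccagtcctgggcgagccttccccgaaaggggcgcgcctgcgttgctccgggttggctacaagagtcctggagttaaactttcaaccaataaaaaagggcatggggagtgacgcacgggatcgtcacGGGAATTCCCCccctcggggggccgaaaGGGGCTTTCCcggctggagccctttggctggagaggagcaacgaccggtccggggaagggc
Nfkbia: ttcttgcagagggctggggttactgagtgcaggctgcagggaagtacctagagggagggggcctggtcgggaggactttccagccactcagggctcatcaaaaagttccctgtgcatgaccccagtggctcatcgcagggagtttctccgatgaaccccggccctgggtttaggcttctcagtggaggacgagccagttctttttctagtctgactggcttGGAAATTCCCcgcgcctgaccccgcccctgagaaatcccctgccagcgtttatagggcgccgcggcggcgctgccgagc
Bcl3: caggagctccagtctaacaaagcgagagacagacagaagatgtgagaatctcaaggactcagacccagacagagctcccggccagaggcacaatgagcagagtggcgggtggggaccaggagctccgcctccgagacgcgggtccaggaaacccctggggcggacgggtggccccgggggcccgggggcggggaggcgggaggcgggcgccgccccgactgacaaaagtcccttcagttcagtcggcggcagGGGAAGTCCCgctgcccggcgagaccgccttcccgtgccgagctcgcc
Rela: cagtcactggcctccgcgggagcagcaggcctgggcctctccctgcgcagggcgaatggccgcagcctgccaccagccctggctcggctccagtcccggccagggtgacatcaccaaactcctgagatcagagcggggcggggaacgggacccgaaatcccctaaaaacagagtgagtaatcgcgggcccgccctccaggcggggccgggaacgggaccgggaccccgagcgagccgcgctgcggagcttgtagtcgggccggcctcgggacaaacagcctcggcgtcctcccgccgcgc

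**Figure D1:**
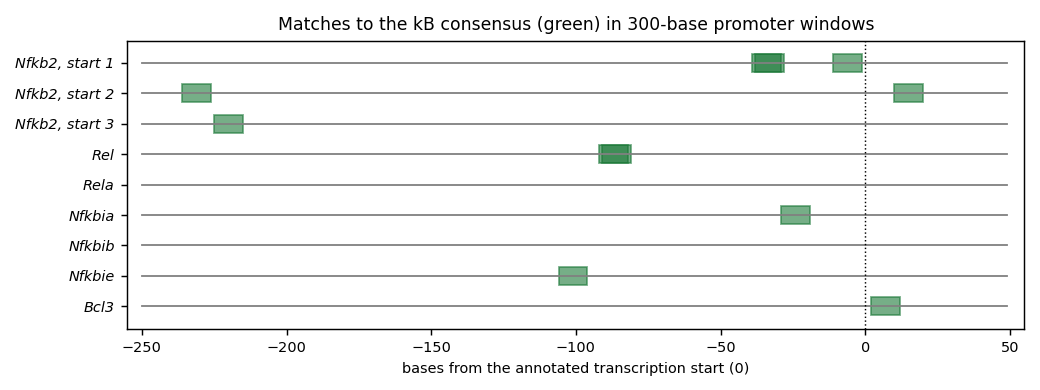
Positions of matches to the kB consensus (green boxes, darker where matches with different first bases overlap) in the 300-base promoter windows of the 7 genes with a RefSeq entry, by distance in bases from the annotated start. Matches on both strands with the same first base are drawn as 1 box. Rela and Nfkbib have no match, and 5 genes have at least 1.

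Challenge was followed by more transcript of most of these genes in both genotypes, with the larger differences in wild-type cells. In knockout cells 6 of the 10 genes rose (Nfkb2, Rel, Nfkbia, Nfkbie, Nfkbiz and Bcl3), none fell, and the median log2 fold change was 0.36 with a range of -0.15 to 0.68. In wild-type cells 9 rose, none fell, Rela did not pass the test, and the median was 1.46 with a range of 0.091 to 1.82. Over all tested genes the medians were -0.005 in knockout and -0.009 in wild-type cells. Each gene was tested with edgeR's quasi-likelihood test in 1 fit over the 12 libraries, and a call means a Benjamini-Hochberg adjusted p below 0.05 over all 16694 genes. By that rule 15.6% of all genes rose and 11.5% fell in knockout cells, and 32.4% rose and 30.9% fell in wild-type cells, so calls in either direction were common. Over the 22 alternatives 5 to 7 of the 10 genes passed in knockout cells and 9 in wild-type cells. With upper-quartile scaling the share of higher calls among all calls in knockout cells was 46.7% in place of 57.5%. In RNA from a cell preparation, fewer cells of a type and less RNA per cell cannot be told apart. Markers of other cells moved with the challenge. The 11 neutrophil markers summed to 888.1 to 1348.4 CPM in challenged knockout, against 496.8 to 514.8 in unchallenged knockout libraries, and to 1771.6 to 2092.8 in challenged wild-type, against 87.4 to 94.2 in unchallenged wild-type libraries. Of these 11 markers 8 rose and 3 fell in knockout cells, 11 rose in wild-type cells, and none was at 0 throughout. The 12 monocyte and macrophage markers summed to 1028.2 to 1359.0 CPM in challenged knockout, against 807.1 to 848.7 in unchallenged knockout libraries, and to 1618.9 to 1832.9 in challenged wild-type, against 625.4 to 676.0 in unchallenged wild-type libraries. Of these 12 markers 8 rose in knockout and 11 in wild-type cells, and none fell. Vcam1 counts both here and among the NF-kB target genes read below. Of the 12 NK markers 10 fell and none rose in knockout cells, and 10 fell and 1 (Prf1, which encodes perforin) rose in wild-type cells. Of 8 erythroid markers 7 fell in each genotype, with sums of 19968.2 to 25012.5 CPM in challenged knockout, against 36735.6 to 41326.0 in unchallenged knockout libraries, and of 1740.2 to 2322.8 in challenged wild-type, against 11669.2 to 13646.3 in unchallenged wild-type libraries. Of 11 T cell markers 9 rose and 2 fell in knockout cells and 11 fell in wild-type cells. Platelet markers rose in 2 of 7 cases in knockout cells and fell in 7 of 7 in wild-type cells. Of 10 B cell markers 8 rose in each genotype and 2 fell in wild-type cells, and of 9 dendritic cell markers 1 rose and 3 fell in knockout and 4 rose and 4 fell in wild-type cells. The part of all these cells in the changes of the NF-kB and IkB genes was not tested.

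**Figure D2:**
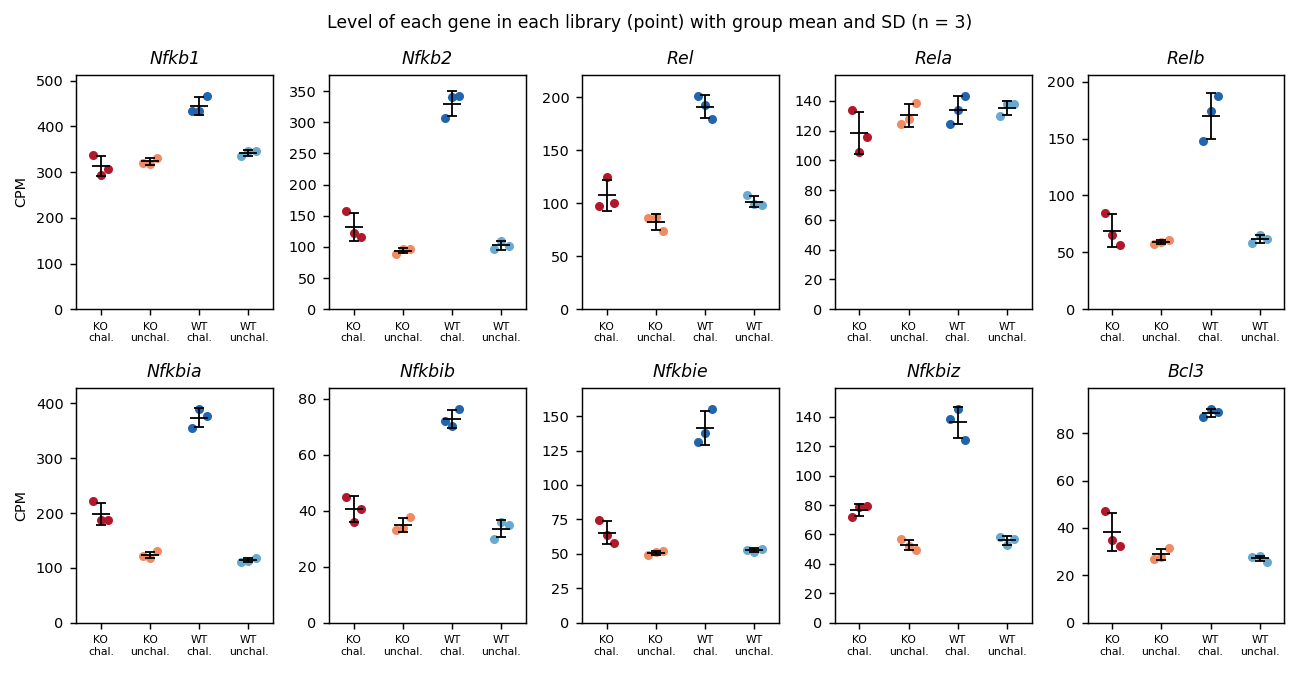
CPM of each of the 10 genes in each of the 12 libraries (points), with group means and SD (black bars, n = 3); groups run from challenged knockout to unchallenged wild-type, and each vertical axis starts at 0. Challenged wild-type libraries lie above all others for every gene but Rela, whose challenged wild-type libraries (124.6 to 143.3 CPM) lie among those of the other groups. The share of all tested genes with such a separation was not worked out.

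Among the subunit genes, those of the slower branch had the largest log2 fold changes in wild-type cells. Nfkb2 (ENSMUSG00000025225, chr19:46304320-46312385, plus strand) encodes the precursor that is processed in the slower branch. Its levels were 157.4, 123.0 and 115.6 CPM in challenged knockout, against 89.2, 97.0 and 96.5 CPM in unchallenged knockout libraries. They were 306.9, 340.9 and 342.4 CPM in challenged wild-type, against 96.0, 110.1 and 101.2 CPM in unchallenged wild-type libraries. Challenged libraries lay above unchallenged ones in both genotypes without overlap, and challenged knockout replicate 1 was the highest of its group. That library was the highest of its group for 8 of the 10 genes, all but Rel and Nfkbiz. Nfkb2 changed by 0.48 on the log2 scale (SE 0.10, adjusted p = 0.00226) in knockout and 1.79 (SE 0.10, adjusted p = 5.94e-10) in wild-type cells. Relb (ENSMUSG00000002983, chr7:19606217-19629438, minus strand), the partner of the processed Nfkb2 product, had 84.7, 65.6 and 56.8 CPM in challenged knockout, against 57.6, 58.7 and 60.9 CPM in unchallenged knockout libraries. In wild-type cells it had 147.7, 174.5 and 187.5 CPM with challenge, against 58.5, 65.0 and 61.6 CPM without. The knockout groups overlapped, since replicate 3 was below all unchallenged libraries, and the wild-type groups did not. Its log2 fold change was 0.22 (SE 0.12, adjusted p = 0.223) in knockout and 1.57 (SE 0.12, adjusted p = 6.74e-08) in wild-type cells. The knockout value hung on single libraries: it was 0.033 without challenged replicate 1 and 0.34 (adjusted p = 0.0491) without challenged replicate 3.

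The subunits of the faster branch had smaller values. Rel (ENSMUSG00000020275, chr11:23736847-23770970, minus strand) encodes c-Rel, a transactivating subunit of lymphoid and myeloid cells. Its levels were 97.3, 124.5 and 99.8 CPM in challenged knockout, against 86.2, 86.6 and 73.7 CPM in unchallenged knockout libraries. Challenged wild-type libraries had 201.1, 192.1 and 179.3 CPM, against 107.3, 99.3 and 98.0 CPM in unchallenged wild-type libraries. Neither genotype's groups overlapped, and every challenged wild-type library stood above every knockout library. On the log2 scale Rel rose by 0.37 (SE 0.088, adjusted p = 0.00562) in knockout and 1.01 (SE 0.088, adjusted p = 8.21e-08) in wild-type cells. Nfkb1 (ENSMUSG00000028163, chr3:135584655-135691547, minus strand) encodes the precursor of a DNA-binding subunit that has no transactivation domain of its own. It had 336.7, 294.4 and 306.4 CPM in challenged knockout, against 319.6, 318.5 and 331.7 CPM in unchallenged knockout libraries, and these overlapped. In wild-type libraries it had 434.3, 433.1 and 466.5 CPM with challenge, against 335.0, 346.7 and 346.0 CPM without, with a clear gap between them. The log2 fold change was -0.057 (SE 0.063, adjusted p = 0.56) in knockout and 0.48 (SE 0.063, adjusted p = 8.1e-06) in wild-type cells.

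Rela (ENSMUSG00000024927, chr19:5637483-5648130, plus strand), the main transactivating subunit in most cells, stood apart from the other genes by passing the test in neither genotype. Its levels were 133.7, 105.8 and 115.5 CPM in challenged knockout, against 124.1, 128.0 and 138.8 CPM in unchallenged knockout libraries. Wild-type libraries had 124.6, 133.8 and 143.3 CPM with challenge, against 129.5, 137.8 and 137.9 CPM without. All 4 groups overlapped. Fitted log2 fold changes were -0.15 (SE 0.086, adjusted p = 0.235) in knockout and 0.091 (SE 0.085, adjusted p = 0.368) in wild-type cells, and the wild-type value changed sign under upper-quartile scaling (-0.017) and with column totals (-0.013). Without challenged knockout replicate 1, Rela fell in knockout cells (-0.25, adjusted p = 0.0196).

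All 3 typical IkB genes rose in wild-type cells and 2 of the 3 in knockout cells. Nfkbia (ENSMUSG00000021025, chr12:55489410-55492647, minus strand) encodes IkB alpha, the inhibitor that is rebuilt fastest after it is destroyed. It had 221.4, 186.9 and 186.5 CPM in challenged knockout, against 121.6, 118.1 and 130.4 CPM in unchallenged knockout libraries. Challenged wild-type libraries held 354.8, 389.6 and 377.2 CPM, against 110.0, 113.1 and 117.7 CPM in unchallenged wild-type libraries. The groups did not overlap in either genotype, and its log2 fold change was the largest of the 10 in both, 0.68 (SE 0.076, adjusted p = 9.43e-06) in knockout and 1.82 (SE 0.077, adjusted p = 2.43e-11) in wild-type cells. In wild-type cells Bcl3 (1.816, SE 0.116) and Nfkb2 (1.792, SE 0.101) lay within the SE of this value. Nfkbie (ENSMUSG00000023947, chr17:45555703-45563169, plus strand) encodes IkB epsilon, a later feedback inhibitor. Its values were 74.2, 63.5 and 57.7 CPM in challenged knockout, against 49.1, 51.0 and 51.7 CPM in unchallenged knockout libraries. They were 131.4, 137.8 and 155.1 CPM in challenged wild-type, against 52.7, 51.2 and 53.8 CPM in unchallenged wild-type libraries. Every challenged library exceeded every unchallenged one, by a wider margin in wild-type cells. Its rise on the log2 scale was 0.36 (SE 0.087, adjusted p = 0.00694) in knockout and 1.53 (SE 0.088, adjusted p = 6.72e-10) in wild-type cells.

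Nfkbib (ENSMUSG00000030595, chr7:28758251-28767512, minus strand) encodes IkB beta, the inhibitor that is replaced slowly. Its levels were 45.0, 35.9 and 40.7 CPM in challenged knockout, against 33.0, 33.7 and 37.6 CPM in unchallenged knockout libraries. Wild-type libraries had 71.8, 70.2 and 76.2 CPM with challenge, against 30.0, 35.9 and 34.8 CPM without. The knockout groups overlapped through replicate 2 of the challenged cells, and the wild-type groups were far apart. The log2 fold change was 0.21 (SE 0.096, adjusted p = 0.117) in knockout and 1.22 (SE 0.096, adjusted p = 2.5e-08) in wild-type cells, and without challenged knockout replicate 2 the knockout value was 0.31 (adjusted p = 0.028). Its promoter window holds no match to the kB consensus, and whether a match goes with a response was not tested.

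Both nuclear IkB genes rose in both genotypes. Nfkbiz (ENSMUSG00000035356, chr16:55811375-55838899, minus strand) encodes IkB zeta, a nuclear cofactor that NF-kB needs at part of its secondary target genes. It had 71.6, 78.8 and 79.4 CPM in challenged knockout, against 56.7, 52.3 and 49.6 CPM in unchallenged knockout libraries. In wild-type cells it had 138.9, 145.3 and 124.6 CPM with challenge, against 58.1, 52.7 and 57.2 CPM without. The groups were separate in both genotypes, and the challenged knockout libraries were close together. This was a log2 fold change of 0.53 (SE 0.075, adjusted p = 0.000101) in knockout and 1.39 (SE 0.075, adjusted p = 3.93e-10) in wild-type cells. Bcl3 (ENSMUSG00000053175, chr7:19808462-19822770, minus strand) encodes a nuclear partner of dimers that lack a transactivation domain. It lies 179023 bp from Relb on chromosome 7. Its levels were 47.3, 35.1 and 32.5 CPM in challenged knockout, against 26.9, 27.8 and 31.6 CPM in unchallenged knockout libraries, and 86.9, 90.2 and 89.0 CPM in challenged wild-type, against 27.6, 28.0 and 25.7 CPM in unchallenged wild-type libraries. Challenged knockout replicate 1 stood well above the other libraries of its group, while the challenged wild-type libraries lay within a few CPM of each other. The log2 fold change was 0.41 (SE 0.12, adjusted p = 0.0163) in knockout and 1.82 (SE 0.12, adjusted p = 2.47e-09) in wild-type cells. The knockout call was lost in 5 of 22 alternatives, among them the fit without challenged replicate 1 (0.22, adjusted p = 0.0515).

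**Figure D3:**
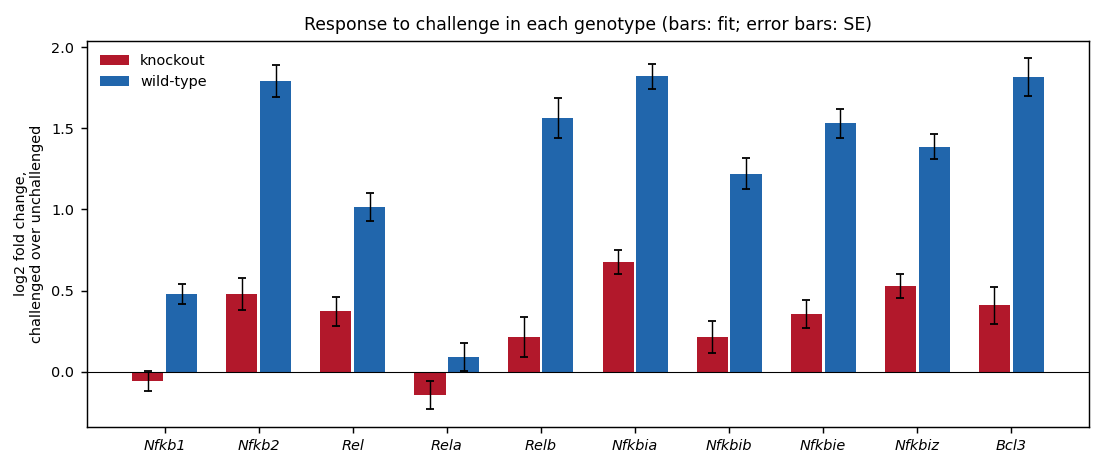
Log2 fold change of each gene after challenge in knockout (red) and wild-type (blue) cells, from the fit over all 12 libraries; bars start at 0 and error bars are SE. The knockout bars lie between -0.15 and 0.68 and the wild-type bars between 0.091 and 1.82.

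After challenge all 10 genes were lower in knockout than in wild-type cells. The median log2 difference was -0.97, with a range of -1.42 to -0.27, against a median of -0.002 over all tested genes, of which 22.7% were higher and 25.9% lower. With column totals 59.2% of all calls were higher in place of 46.7%. The largest difference among the 10 was in Nfkb2, at -1.42 (SE 0.10, adjusted p = 2.54e-08), followed by Relb at -1.39 (SE 0.12, adjusted p = 5.18e-07) and Bcl3 at -1.30 (SE 0.11, adjusted p = 2.07e-07). Challenged knockout libraries had 115.6 to 157.4 CPM of Nfkb2, against 306.9 to 342.4 in challenged wild-type libraries. The typical inhibitors differed by -1.21 for Nfkbie, -1.01 for Nfkbia and -0.94 for Nfkbib, so knockout cells held from 0.432 to 0.522 of the wild-type transcript level of each. Rel (-0.93), Nfkbiz (-0.93) and Nfkb1 (-0.60) were lower as well. For all of the 10 genes but Rela the libraries of the genotypes did not overlap. The share of all tested genes without overlap was not worked out, so this count has no background beside it. Rela differed by -0.27 (SE 0.086, adjusted p = 0.0163), with overlapping libraries of 105.8 to 133.7 CPM in knockout and 124.6 to 143.3 CPM in wild-type cells. Its call was lost in 5 of 22 alternatives, with adjusted p up to 0.115, reached without challenged knockout replicate 2, and it was also lost without challenged wild-type replicate 3 (adjusted p = 0.0716). The other 9 calls held in all 22, the fit without challenged knockout replicate 3 included. The lists of other cells differed between these groups too: of the neutrophil markers 9 were lower and 2 higher in challenged knockout cells, of the 12 monocyte and macrophage markers 10 were lower and 1 higher, and of the NK markers 8 were higher and 1 lower. The 8 erythroid markers tested were all higher in challenged knockout cells and summed to 19968.2 to 25012.5 CPM in knockout, against 1740.2 to 2322.8 CPM in wild-type libraries. T cell markers were higher in 11 of 11 and platelet markers in 5 of 7 cases, dendritic cell markers were higher in 5 and lower in 3 of 9, and B cell markers were higher in 2 and lower in 6 of 10. The part of these cells in the differences of the NF-kB and IkB genes was not tested.

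Without challenge the genotypes differed little in these genes. The median log2 difference, knockout minus wild-type, was -0.040, against -0.007 over all tested genes, and 1 of 10 genes passed, against 6.64% of all genes higher and 5.07% lower. That gene was Rel, with 86.2, 86.6 and 73.7 CPM in knockout and 107.3, 99.3 and 98.0 CPM in wild-type libraries, a log2 difference of -0.29 (SE 0.089, adjusted p = 0.048). The Rel libraries did not overlap, but the call was lost in 14 of 22 alternatives, each of the 6 fits without an unchallenged library among them, with adjusted p up to 0.212. Nfkbia was the gene with the most positive difference, 0.14 (SE 0.076, adjusted p = 0.323), and its 121.6, 118.1 and 130.4 CPM in knockout lay above the 110.0, 113.1 and 117.7 CPM in wild-type libraries. Nfkb1 differed by -0.066 (SE 0.063, adjusted p = 0.634), and its 318.5 to 331.7 CPM in knockout lay below the 335.0 to 346.7 CPM in wild-type libraries. The other 7 log2 differences lay between -0.10 for Nfkb2 and 0.11 for Bcl3, with overlapping libraries. How many of all tested genes had no overlap here was not worked out. Markers of other cells differed between these groups. In unchallenged knockout cells 10 of 11 neutrophil markers were higher and none lower, with sums of 496.8 to 514.8 CPM in knockout and 87.4 to 94.2 CPM in wild-type libraries. All 8 erythroid markers were higher, with sums of 36735.6 to 41326.0 CPM in knockout and 11669.2 to 13646.3 CPM in wild-type libraries. Dendritic cell markers were higher in 6 of 9 and monocyte and macrophage markers in 5 of 12 cases, with none lower. B cell markers were lower in 10 of 10, T cell markers in 7 of 11 and platelet markers in 7 of 7 cases, with none higher, and none of the 12 NK markers passed in either direction. The part of these cells in the levels of the NF-kB and IkB genes was not tested.

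The challenge responses of the genotypes were then compared directly, as the response in knockout minus that in wild-type cells. This difference was negative for all 10 genes and passed the test for 9, against 16.7% of all genes with a more positive and 18.5% with a more negative response in knockout cells. Its median was -1.08 over the 10 genes and 0.004 over all tested genes, which moved by 0.113 with column totals, where 61.7% of calls were higher in place of 47.5%. The most negative values were -1.41 for Bcl3 (SE 0.16, adjusted p = 9.03e-06), -1.35 for Relb (SE 0.17, adjusted p = 4.05e-05) and -1.31 for Nfkb2 (SE 0.14, adjusted p = 4.39e-06). The typical inhibitors lay between -1.18 for Nfkbie and -1.01 for Nfkbib, with Nfkbia at -1.15. Nfkbiz (-0.86), Rel (-0.64) and Nfkb1 (-0.54) followed. Rela was at -0.24 (SE 0.12, adjusted p = 0.144), and passed without challenged knockout replicate 1 (-0.34, adjusted p = 0.0134). Among markers of other cells, the response was more negative in knockout cells for 11 of 11 neutrophil and for 8 of 12 monocyte and macrophage markers, with none more positive. It was more positive for 11 of 11 T cell, 7 of 8 erythroid, 7 of 7 platelet and 4 of 10 B cell markers, with none more negative. Of the NK markers 8 were more positive and 1 more negative, and of the dendritic cell markers 4 were more positive and 3 more negative. Their part in the differences was not tested, nor was that of sex, whose transcripts went with the groups.

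To set the genes beside each other, CPM was divided by the summed exon length of each gene in kilobases. In all 4 groups Nfkbia was at the top, at 123.2 ± 12.4 CPM per kb in challenged knockout, 76.6 ± 3.93 in unchallenged knockout, 232.2 ± 10.9 in challenged wild-type and 70.6 ± 2.41 in unchallenged wild-type cells (SD, n = 3 each). Second was Rela in challenged knockout (38.5 ± 4.61), unchallenged knockout (42.4 ± 2.47) and unchallenged wild-type cells (44.0 ± 1.57), each without overlap with its neighbours in the order. In challenged wild-type cells Nfkb2 was second, at 72.0 ± 4.39 CPM per kb, and Rela (43.6 ± 3.03) came after Nfkbie (46.4 ± 4.02) and Relb (43.7 ± 5.22), whose ranges overlapped with it or with each other. Rel was last in both challenged groups, at 14.4 ± 2.01 CPM per kb in knockout and 25.6 ± 1.47 in wild-type cells, while Nfkbiz (10.5 ± 0.716) was last in unchallenged knockout and Bcl3 (10.9 ± 0.508) in unchallenged wild-type cells. From the third place down, neighbours in challenged knockout cells overlapped throughout. These places depended on the length used, above all for Nfkb1 (4149 bases in the longest transcript, 12061 in all exons). With the longest transcripts Nfkb1 lay above Rela in every group, and Rel was last in every group. In challenged wild-type cells Nfkb1 (107.2 ± 4.56 CPM per kb) then lay above Nfkb2 (85.8 ± 5.23). In unchallenged wild-type cells it was at the top, at 82.6 ± 1.58 CPM per kb, against 72.0 ± 2.46 for Nfkbia. In unchallenged knockout cells its libraries (76.8 to 79.9 CPM per kb) lay within the range of Nfkbia (74.9 to 82.7).

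**Figure D4:**
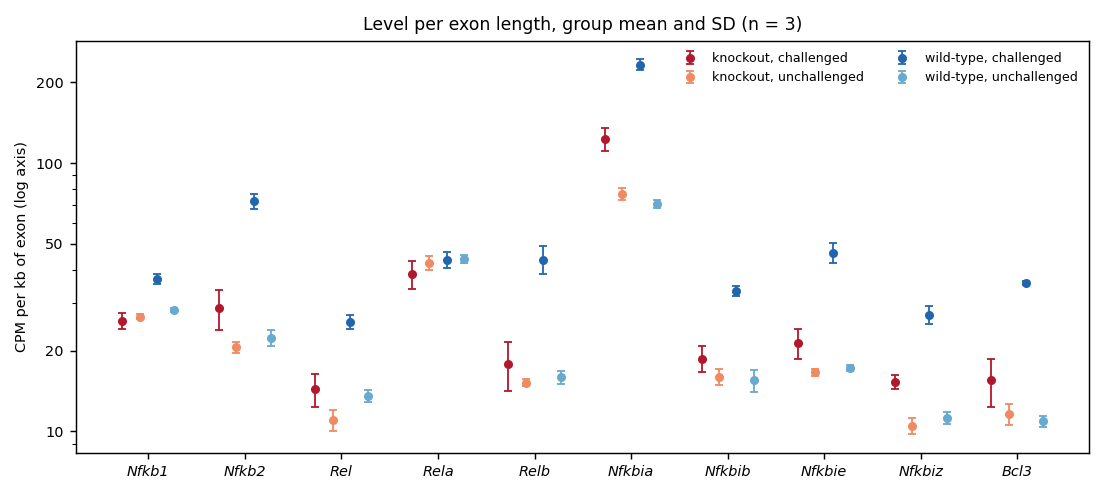
Mean level per kilobase of exon, with SD (n = 3), of each gene in the 4 groups on a log axis. Nfkbia is highest in every group, and in challenged wild-type cells Nfkb2 (72.0 CPM per kb) stands above Rela (43.6), which it does not in the other groups.

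These levels were also read as ratios within a library, which do not depend on the scaling between libraries and are given as descriptions with no test. The ratio of Nfkb2 to Nfkb1 was 0.992 to 1.23 in challenged knockout, 0.734 to 0.802 in unchallenged knockout, 1.86 to 2.07 in challenged wild-type and 0.754 to 0.835 in unchallenged wild-type libraries. Its size depended on the length used for Nfkb1. With the longest transcripts it was 0.407 to 0.504 in challenged and 0.301 to 0.329 in unchallenged knockout libraries. In wild-type libraries it was then 0.762 to 0.849 with challenge and 0.309 to 0.343 without, so Nfkb2 lay below Nfkb1 in every group. Relb to Rela was 0.389 to 0.501 in challenged knockout, 0.347 to 0.367 in unchallenged knockout, 0.937 to 1.03 in challenged wild-type and 0.353 to 0.373 in unchallenged wild-type libraries. For both ratios, challenged wild-type libraries stood apart from all others and the unchallenged genotypes overlapped. Nfkbia to Rela was 3.08 to 3.37 in challenged knockout, 1.76 to 1.87 in unchallenged knockout, 5.02 to 5.56 in challenged wild-type and 1.57 to 1.63 in unchallenged wild-type libraries, with no overlap between any of the groups. The balance of inhibitors and subunits differed less between the challenged genotypes. The 3 typical IkB genes together, over the 5 subunit genes together, came to 1.3 ± 0.0175 in challenged knockout, 0.942 ± 0.0283 in unchallenged knockout, 1.41 ± 0.0255 in challenged wild-type and 0.832 ± 0.0233 in unchallenged wild-type cells (SD, n = 3 each). With the longest transcripts as lengths this ratio was 0.885 in challenged knockout, 0.623 in unchallenged knockout, 0.999 in challenged wild-type and 0.553 in unchallenged wild-type cells.

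The 10 genes differed among themselves in their pattern over the 12 libraries, measured as the root mean square difference of log2(CPM + 0.5) after each gene was centred on its own mean. The closest pairs among them were Relb with Nfkbie (0.102) and Nfkb2 with Bcl3 (0.106). Rela was the farthest member for all others except Nfkb1, for which Nfkb2 was farthest (0.548), and the distance of Rela to Nfkb2 was 0.71. The search covered 10395 tested genes with a mean of at least 5 CPM, a number that includes the 10 genes themselves. Genes with clone-like names (such as Gm or Rik) and mitochondrially encoded genes were left out. Outside the 10 genes, the closest patterns were those of Cstb and Samhd1 for Nfkbia, St14 and Il15ra for Nfkb2, Avpi1 and Syngr2 for Relb, and Trex1 and Trafd1 for Bcl3. For Nfkbie these were Got1 (0.051) and Mvp (0.076), for Nfkbib Tmem39a and Tuba1a, for Nfkbiz Hsp90b1 and St13, and for Rel Ggta1 and Tspan13. The flatter Nfkb1 was closest to Ctnna1 (0.046) and Nucb1, and Rela to Tfip11 (0.040) and Dnal4. All of these values rest on the same 12 libraries and their shared depth and cell mixture.

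Genes around the family in the pathway were read from lists by role, and each count stands against the shares of all tested genes: 15.6% rose and 11.5% fell in knockout cells, and 32.4% rose and 30.9% fell in wild-type cells. Of 10 genes of the IKK complex and its activating kinases none rose and 1 fell in knockout cells after challenge (Tab2, an adaptor of the kinase TAK1, at -0.19), and 2 rose and 5 fell in wild-type cells, with medians of -0.023 in knockout and -0.13 in wild-type cells. The count in knockout cells ran from 0 to 3 over the alternatives. Map3k14, which encodes NIK, the kinase of the Nfkb2 branch, had 67.5 CPM in challenged and 64.5 in unchallenged knockout cells, against 120.2 in challenged and 72.0 in unchallenged wild-type cells. Its log2 fold change was 0.056 (adjusted p = 0.70) in knockout and 0.84 (adjusted p = 7.39e-07) in wild-type cells, and the responses differed by -0.79 (adjusted p = 0.000191). Ikbkg, which encodes the regulatory subunit NEMO, fell by 0.42 on the log2 scale in wild-type cells (adjusted p = 4.85e-05) and was at -0.12 (adjusted p = 0.196) in knockout cells. Of 8 other regulators that resemble IkB proteins or bind NF-kB, 1 rose and none fell in knockout cells, and 2 rose and 1 fell in wild-type cells, none of them a larger share than over all genes. The number called ran from 0 to 2 in knockout cells and from 2 to 6 in wild-type cells over the alternatives, the 6 being reached without challenged knockout replicate 1. Commd1, which promotes turnover of RelA, rose by 0.33 in knockout and by 0.91 in wild-type cells, with a difference of -0.58 (adjusted p = 0.00882). Its call in knockout cells (adjusted p = 0.0358) was lost under upper-quartile scaling and in the fits without challenged knockout replicate 3 or without unchallenged knockout replicate 2, 3 or 4. Nkiras1, an inhibitor that binds IkB beta, was at -0.083 (adjusted p = 0.646) in knockout and fell by 0.62 (adjusted p = 0.000227) in wild-type cells.

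Ubiquitin switches of the pathway are the ligases, deubiquitinases and adaptors that pass on or end the signal. Of 19 genes 4 rose and 2 fell in knockout cells, and 14 rose and 2 fell in wild-type cells, with medians of 0.055 in knockout and 0.39 in wild-type cells, beside 15.6% and 11.5% of all genes in knockout and 32.4% and 30.9% in wild-type cells that rose and fell. In challenged cells 14 were lower and 1 higher in knockout than in wild-type, against 25.9% of all genes lower and 22.7% higher. The response was more negative in knockout cells for 13, against 18.5% of all genes, and more positive for none. Tnfaip3, which encodes the feedback deubiquitinase A20, had 249.0 CPM in challenged and 137.5 in unchallenged knockout cells, against 467.5 in challenged and 179.9 in unchallenged wild-type cells. It rose by 0.85 in knockout (adjusted p = 0.00031) and by 1.48 in wild-type cells (adjusted p = 3.46e-07), a difference of -0.63 (adjusted p = 0.0156). Traf1, an adaptor of tumour necrosis factor receptors, was at 0.12 (adjusted p = 0.216) in knockout and rose by 1.08 in wild-type cells, with a difference of -0.96 (adjusted p = 1.61e-06). Birc3, a ubiquitin ligase that keeps NIK low in resting cells, rose by 0.33 in knockout and by 0.81 in wild-type cells. Btrc, a subunit of the ligase that recognises phosphorylated IkB, fell to nearly the same extent in both, by 0.47 in knockout and by 0.49 in wild-type cells, and the difference of 0.026 did not pass (SE 0.10, adjusted p = 0.873).

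Upstream, of 18 receptors 8 rose and 4 fell in knockout cells, where 15.6% of all genes rose and 11.5% fell. In wild-type cells 13 rose and 3 fell, where 32.4% of all genes rose and 30.9% fell. The response was more negative in knockout cells for 11 and more positive for 3, beside 18.5% and 16.7% of all genes. Il18rap and Il18r1, the subunits of the IL-18 receptor, were among those that fell. Il18rap had 689.6 CPM in challenged and 1092.4 in unchallenged knockout cells, against 207.3 in challenged and 1013.0 in unchallenged wild-type cells, with log2 fold changes of -0.67 in knockout (adjusted p = 7.56e-07) and -2.19 in wild-type cells (adjusted p = 4.89e-13). Tnfrsf9, a costimulatory receptor of activated lymphocytes, rose by 0.52 in knockout and by 1.85 in wild-type cells, a difference of -1.33 (adjusted p = 4.12e-08). Of 11 ligands 7 rose and 1 fell in knockout cells and 7 rose and 3 fell in wild-type cells, to be read against the same shares of all genes. Tnf had 18.8 to 24.3 CPM in challenged and 7.83 to 8.17 in unchallenged knockout libraries, against 47.1 to 53.8 in challenged and 10.3 to 11.6 in unchallenged wild-type libraries, and its response differed by -0.86 (adjusted p = 0.000205). Il1b averaged 77.1 CPM in challenged and 15.3 in unchallenged knockout cells, against 174.4 in challenged and 8.19 in unchallenged wild-type cells.

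Downstream, 25 textbook NF-kB target genes were tested. In knockout cells 21 rose and none fell, with a median log2 fold change of 1.01, where 15.6% of all genes rose. In wild-type cells all 25 rose, with a median of 2.99, where 32.4% of all genes rose. In challenged cells 24 were lower and none higher in knockout than in wild-type, against 25.9% of all genes lower, and the response was more negative in knockout cells for 21, against 18.5% of all genes. Without challenge 7 of the 25 were higher and 3 lower in knockout than in wild-type, against 6.64% of all genes higher and 5.07% lower. Each response starts from the unchallenged level of its genotype, and the part of these starting levels was not tested. Cxcl10, a chemokine that draws T and NK cells, averaged 70.3 CPM in challenged and 4.87 in unchallenged knockout cells, against 317.5 in challenged and 3.97 in unchallenged wild-type cells, with responses of 3.84 in knockout and 6.42 in wild-type cells and a difference of -2.58 (adjusted p = 6.12e-08). Ccl22 differed most among the chemokines named, with responses of 0.79 in knockout and 4.11 in wild-type cells, a difference of -3.32 (adjusted p = 1.23e-08). Saa3, an acute phase gene, had responses of 7.10 in knockout and 7.73 in wild-type cells, and the difference of -0.63 did not pass (SE 0.72, adjusted p = 0.537). Lcn2, an iron-binding protein stored in neutrophil granules, was at 31.7 CPM in unchallenged knockout and 1.95 in unchallenged wild-type cells, beside the neutrophil markers given above. Several targets are also made by myeloid cells, and whether NK cells gave these transcripts was not tested.

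**Figure D5:**
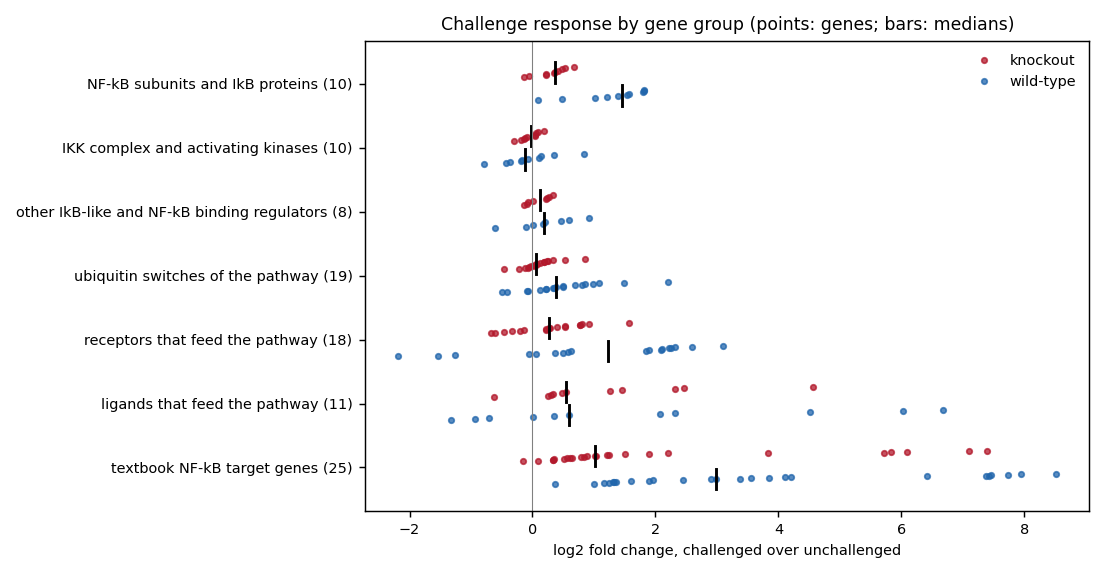
Log2 fold change after challenge of each tested gene in the family and in the pathway lists (numbers of genes in parentheses), with knockout (red) above wild-type (blue) in each row and black bars at the medians. The family has medians of 0.36 in knockout and 1.46 in wild-type cells, those of the IKK list -0.023 in knockout and -0.13 in wild-type cells, and those of the target list 1.01 in knockout and 2.99 in wild-type cells.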

How the data were processed

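The authors deposited 1 table of counts per gene and library, not normalized. The tools named in the submitters' processing notes are RSEM 1.3.0 with Bowtie2 2.2.8, Trim Galore 0.4.1 and bcl2fastq, on GRCm38. RSEM estimates need not be whole, and the sources used here do not record how they became whole, which annotation release was used, or the strand setting. All 12 value columns were used (columns left out: 0). Groups came from the labels.

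CPM is counts over column totals. Tests used edgeR 4.0.16 (R 4.3.3): filterByExpr, TMM scaling, 1 robust quasi-likelihood fit of all 12 libraries with a term per group, and Benjamini-Hochberg adjustment over 16694 genes in each of 5 contrasts. SE came from the fold change and F statistic. The code was tested on simulated data. Alternatives were upper-quartile, RLE and column-total scaling, no filter and a filter of 1 CPM in 3 libraries, DESeq2 1.42.0, limma voom (limma 3.58.1), a replicate block by the first and another by the second replicate number in the labels, only the groups compared, and each library left out. Lengths and UTRs came from GENCODE vM21. Within groups, squared differences between libraries were 3.36 to 25.8 times counting noise, so none was a duplicate.

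The 10 genes, the lists and the tests were chosen with earlier results of these data known. Every 1 of the 10 genes was named. Pathway genes were named from the 4 with the smallest p per list in the challenge responses and their difference, and similar genes as the 2 closest per gene. The labels of unchallenged libraries carry a first and a second replicate number that differ. Residual correlations between genotypes at the same number were -0.317, 0.058 and -0.148 with challenge, and 0.12, -0.048 and 0.006 without. The highest value among pairs that share either number was 0.249, for challenged and unchallenged knockout replicate 2. Residuals taken from means of 3 libraries cannot tell whether the numbers pair the libraries, and the fit assumed no pairing.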

Additional observations from a re-analysis of the deposited data

Results flagged for a closer look

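For 9 of the 10 genes the test of the difference between the genotypes' responses to challenge passed (edgeR's quasi-likelihood test, adjusted over all tested genes), and these differences are listed here with the responses they come from. Nfkb1 was at -0.057 in knockout and 0.48 in wild-type cells, a difference of -0.537. Nfkb2 rose by 0.48 in knockout and by 1.79 in wild-type cells (-1.314), and Relb was at 0.22 in knockout and 1.57 in wild-type cells (-1.348). Rel rose by 0.37 in knockout and by 1.01 in wild-type cells (-0.642). Of the typical inhibitors, Nfkbia rose by 0.68 in knockout and by 1.82 in wild-type cells (-1.146), Nfkbie rose by 0.36 in knockout and by 1.53 in wild-type cells (-1.176), and Nfkbib was at 0.21 in knockout and 1.22 in wild-type cells (-1.007). Nfkbiz rose by 0.53 in knockout and by 1.39 in wild-type cells (-0.86), and Bcl3 rose by 0.41 in knockout and by 1.82 in wild-type cells (-1.408).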

How the results depend on the processing

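Of 1090 fold changes of the 10 genes under an alternative, 1057 kept direction and side of the threshold, 24 lost and 4 gained a call, and 5 changed sign. The sign changes were all of values that did not pass: Rela after challenge in wild-type cells (-0.017 with upper-quartile scaling, -0.013 with column totals), and, without challenge, Rela (-0.082 to 0.002), Relb (-0.082 to 0.009) and Nfkbib (-0.005 to 0.134) over the fits that leave out a library. Without challenge, 0 of 10 genes passed under upper-quartile scaling, RLE scaling, the filter of 1 CPM in 3 libraries and limma voom, and 0 to 1 over the fits that leave out a library; the cause was not tested. The replicate block by the first number, which is not known to pair the libraries, ended the Bcl3 call after challenge in knockout cells (0.336, adjusted p = 0.0921, the highest over its alternatives) and gave 3 calls in place of 6 among the ubiquitin switches there. Of 654 list counts 38 moved by over 1.5 times. Of 40 levels per length 24 moved with the longest transcript. Upper-quartile scaling and column totals shifted the median of all genes after challenge in wild-type cells by -0.107 and -0.103. The 10 genes had at least 474 counts in each library.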
